A study of Homo sapiens with 10 samples.

Results

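NRF2, encoded by NFE2L2, its repressor KEAP1 and 7 of its target genes were followed in RNA-Seq libraries from 3 liver cancer cell lines. In SK-hep1 the paraspeckle protein PSPC1 had been overexpressed, wild-type or mutated, without or with the kinase PTK6. In Mahlavu a C-terminal part of PSPC1 had been overexpressed, and Huh-7 cells had been given hepatocyte growth factor (HGF). The members were taken by gene symbol, and all 9 were found among the 58302 genes of every table. The study had 10 libraries with 1 library per condition, so no difference between conditions has a replicate check and no p-value is given. SK-hep1 transfectants comprised a mock control, PSPC1, PSPC1 with PTK6 (PSPC1/PTK6), the mutant PSPC1-Y523F in which a tyrosine is replaced, and that mutant with PTK6 (PSPC1-Y523F/PTK6). Mahlavu transfectants comprised a mock control, the C-terminal part of PSPC1 (PSPC1-CT131) and the same part with a mutated nuclear localization sequence (Mut-NLS-CT131); the label of the last names a mutation of PSPC1, and the methods place it in that C-terminal part. Huh-7 cells were untreated or given 10 ng/ml HGF for 48 h. Nothing in the sources used here says whether a transfectant library came from 1 clone or from a pool. The methods describe selection of stable clones with antibiotics, but name the in vivo experiments as their purpose. All cells were grown in the same serum-containing medium.

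NRF2 is a transcription factor that is kept low in resting cells, because KEAP1 hands it to the CUL3 ubiquitin ligase for degradation. Oxidants and electrophiles modify cysteines of KEAP1, NRF2 then accumulates, pairs with small MAF proteins and binds antioxidant response elements at genes of glutathione synthesis, thioredoxin reduction, quinone detoxification and heme breakdown. Because NRF2 is controlled largely at the protein level, its transcript and its targets need not move together. In liver cancer the pathway is known for mutations in NFE2L2 and KEAP1 and for high AKR1B10.

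The antioxidant response element core was looked for in promoter sequences, since it is the letter pattern that NRF2 and small MAF proteins recognize. RefSeq windows of GRCh38.p14 were at hand for 7 of the 9 members and gave 10 transcription start sites; HMOX1 and AKR1B10 had no entry. The letters TGACNNNGC, read on both strands, occurred in the 250 bases before the start in 4 of the 10 windows, belonging to 3 members, KEAP1, GCLM and TXNRD1. Of all 34943 promoters in the table, 10.9% held the pattern in the same stretch. The AP-1 motif TGACTCA, which can overlap the core, was found in 0 of the 10 windows and in 4.22% of all promoters. GCLM (chr1:93909431-93909550, minus strand), TXNRD1 at the first of its 2 starts (chr12:104215659-104215778, plus strand) and NFE2L2 at the first of its 2 starts (chr2:177264132-177264251, minus strand) are given over the 120 bases before the start. The first pair is shown for the match each holds, and NFE2L2 as a promoter without one in the 250 bases searched. Stretches further upstream were not searched for any member. Capitals mark the core.
GCLM: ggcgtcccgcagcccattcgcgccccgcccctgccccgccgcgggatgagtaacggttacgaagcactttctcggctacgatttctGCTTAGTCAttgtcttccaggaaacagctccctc
TXNRD1 start 1: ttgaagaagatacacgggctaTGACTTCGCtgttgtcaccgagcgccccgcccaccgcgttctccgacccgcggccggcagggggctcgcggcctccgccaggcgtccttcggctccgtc
NFE2L2 start 1: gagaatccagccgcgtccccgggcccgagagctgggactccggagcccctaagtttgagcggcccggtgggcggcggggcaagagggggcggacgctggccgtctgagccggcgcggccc
The GCLM core spans bases -34 to -26 from the start, and the TXNRD1 core spans bases -99 to -91. The second start of TXNRD1 had GCTTTGTCA at bases -102 to -94, and the second start of KEAP1 had both TGACACGGC at bases -54 to -46 and GCTTAGTCA at bases -31 to -23. GCTTAGTCA at GCLM and at KEAP1 is the same run of letters on the reverse strand. These matches are letters in a window, and binding of NRF2 was not measured.

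The libraries held 15245935 to 24278662 reads on genes, and mitochondrial genes took 0.463% to 3.73% of them. Levels are given as FPKM, reads scaled to transcript length and to library size, as deposited, with a 95% Wilson interval in the plots that covers counting error only. PSPC1 was listed at 0 FPKM in the SK-hep1 mock control, where 3 reads would have given 0.09 FPKM. It was 7.01 FPKM with PSPC1 alone and 26.4 FPKM with PTK6 added, and 2.28 FPKM with PSPC1-Y523F alone and 70.9 FPKM with PTK6 added. The transfectants of SK-hep1 therefore differed in PSPC1 level as well as in its sequence and in PTK6. PTK6 was 16.7 and 10.5 FPKM in the SK-hep1 libraries that received it and 4.09 to 5.69 FPKM in the other 3. In Mahlavu, PSPC1 was 47.3 FPKM in the mock control, 30.8 in the PSPC1-CT131 library and 22.5 in the Mut-NLS-CT131 library. The gene's total was thus not higher with either construct, but it does not separate the construct, a part of PSPC1, from the native gene. The paper shows both fusion proteins by Western blot and reports less PSPC1 protein with PSPC1-CT131 but not with Mut-NLS-CT131. PTK6 was 8.95, 17.2 and 17.3 FPKM in the same order. Of 6 hepatocyte markers, all exceeded 1 FPKM in Huh-7, while only SERPINA1 did in SK-hep1 and Mahlavu, where ALB was 0 in every library. None of 4 endothelial markers exceeded 1 FPKM in SK-hep1 or Mahlavu, while 2, PECAM1 and CDH5, did in at least 1 Huh-7 library. Of 4 epithelial markers, 2 (KRT8 and KRT18) exceeded 1 FPKM in SK-hep1 and in Mahlavu, and 4 did in Huh-7. All 3 mesenchymal markers did in at least 1 library of each line. The libraries are bulk samples, in which fewer cells of a kind and less RNA per cell cannot be told apart.

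The sensor pair differed by line. NFE2L2 was lowest in SK-hep1, at 29.6 FPKM in the mock control, 31.1 with PSPC1, 46.5 with PSPC1/PTK6, 18.9 with PSPC1-Y523F and 25.2 with PSPC1-Y523F/PTK6. It was 87.6 FPKM in the Mahlavu mock control, 50.1 in PSPC1-CT131 and 85.9 in Mut-NLS-CT131, and 152 and 142 FPKM in untreated and HGF-treated Huh-7. The lines did not overlap for NFE2L2, although the counting intervals of PSPC1-CT131 and PSPC1/PTK6, which are neighbours in the order, did. KEAP1 was 88.3, 63.3, 51.2, 105 and 90.2 FPKM in the SK-hep1 libraries in the same order. It was 153, 158 and 111 FPKM in Mahlavu mock, PSPC1-CT131 and Mut-NLS-CT131, and 77.4 and 65.0 FPKM in untreated and HGF-treated Huh-7. On deposited FPKM all 3 Mahlavu libraries exceeded all others for KEAP1, although the intervals of Mut-NLS-CT131 and PSPC1-Y523F overlapped. After quantile normalization these 2 libraries changed order, with KEAP1 at 106 in Mut-NLS-CT131 and 108 in PSPC1-Y523F. SK-hep1 and Huh-7 were not separated. In SK-hep1, the library with the most NFE2L2 had the least KEAP1, and the library with the least NFE2L2 had the most KEAP1.

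**Figure D1:**
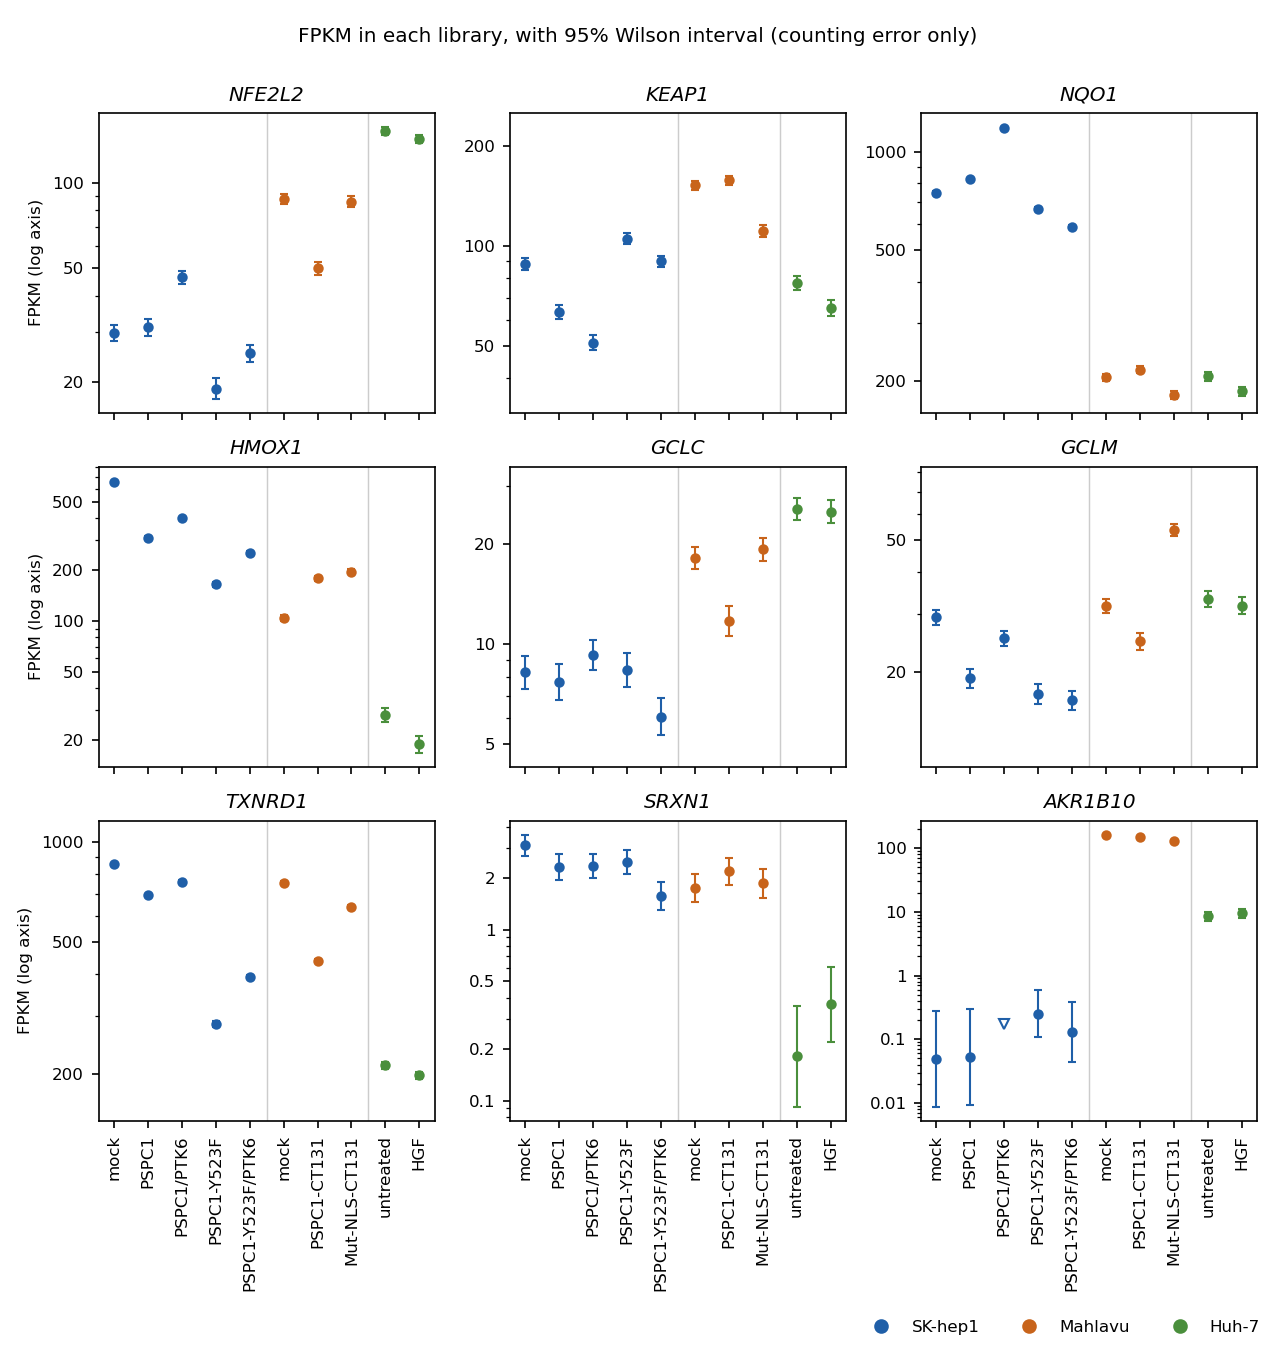
FPKM of the 9 members (1 panel each, log axes with a range of their own) in the 10 libraries, with 95% Wilson intervals as bars and an open triangle at the upper bound where the value was 0. HMOX1 is highest in the SK-hep1 mock control at 657 FPKM, and AKR1B10 lies at or below 0.25 FPKM in SK-hep1 and between 131 and 158 FPKM in Mahlavu.

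Among the enzymes, NQO1, which reduces quinones, was the most abundant member in 4 of the 5 SK-hep1 libraries, and TXNRD1 was in the mock control. NQO1 was 750 FPKM in the mock control, 822 with PSPC1, 1180 with PSPC1/PTK6, 671 with PSPC1-Y523F and 588 with PSPC1-Y523F/PTK6. The other lines held 181 to 216 FPKM, with no overlap with SK-hep1. TXNRD1, which reduces thioredoxin, was 859, 691, 759, 283 and 393 FPKM in the SK-hep1 libraries in the same order, 753, 439 and 639 FPKM in Mahlavu mock, PSPC1-CT131 and Mut-NLS-CT131, and 213 and 198 FPKM in untreated and HGF-treated Huh-7. Huh-7 lay below every other library for TXNRD1, and both PSPC1-Y523F libraries lay below the other SK-hep1 libraries.

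HMOX1, which opens the heme ring, covered the widest range of the targets within SK-hep1 that had over 5 FPKM, with the highest library 4.01-fold over the lowest. It was 657 FPKM in the mock control, 308 with PSPC1, 400 with PSPC1/PTK6, 164 with PSPC1-Y523F and 250 with PSPC1-Y523F/PTK6. In Mahlavu it was 104 FPKM in the mock control, 177 in PSPC1-CT131 and 195 in Mut-NLS-CT131, and in Huh-7 it was 27.9 FPKM untreated and 18.7 with HGF. The mock control was therefore the highest SK-hep1 library and the lowest Mahlavu library, and no 2 neighbours among the 10 levels had overlapping counting intervals.

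GCLC and GCLM, the catalytic and modifier subunits of the enzyme that starts glutathione synthesis, were far less abundant. GCLC was 8.23, 7.69, 9.26, 8.37 and 6.05 FPKM in the SK-hep1 libraries, 18.2, 11.8 and 19.4 FPKM in the Mahlavu libraries, and 25.5 and 25.1 FPKM in Huh-7. GCLM was 29.3, 19.2, 25.3, 17.2 and 16.5 FPKM in SK-hep1, 31.7, 24.7 and 53.7 FPKM in Mahlavu and 33.2 and 31.7 FPKM in Huh-7. The modifier subunit exceeded the catalytic one in every library, and the lines were separated for GCLC but not for GCLM.

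SRXN1, which restores oxidized peroxiredoxins, was 3.11, 2.33, 2.34, 2.48 and 1.57 FPKM in SK-hep1 and 1.75, 2.19 and 1.86 FPKM in Mahlavu. In Huh-7 it rested on 8 reads untreated and 15 reads with HGF, or 0.18 and 0.36 FPKM. SRXN1 shares 85.0% of its exon bases with another annotated gene on the same strand, AL121758.1, and whether reads were left out of its count for that reason was not tested. AKR1B10, which reduces aldehydes and retinal, was near absent from SK-hep1, with 1, 1, 0, 5 and 3 reads in the 5 libraries, and was 158, 149 and 131 FPKM in Mahlavu and 8.46 and 9.50 FPKM in Huh-7. Reads shared with its near-identical neighbour AKR1B15 cannot be assigned with certainty.

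For each pair of libraries, a log2 fold change was taken from quantile-normalized FPKM + 1, a scale that shrinks changes of low genes, and a difference of at least 2-fold was counted where the mean of the normalized values over both libraries reached 1 FPKM. In SK-hep1 this left 8 members, since AKR1B10 was below that mean, and all 4 comparisons share the mock control library. With PSPC1, 1 of the 8 members was at least 2-fold lower and none was higher, beside 2.19% of all genes lower and 5.58% called in either direction. That member was HMOX1, with a log2 fold change of -1.10 and a ratio of deposited levels of 0.468 (95% Clopper-Pearson interval 0.454 to 0.482, counting error only). Ratios given with intervals from here on are likewise of deposited levels, so they can differ from the log2 fold changes beside them. The next lowest were GCLM at -0.52 and KEAP1 at -0.41.

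With PSPC1/PTK6, 0 of 8 members reached 2-fold against the mock control, where 8.41% of all genes did. KEAP1 was at -0.81, HMOX1 at -0.64 and SRXN1 at -0.61, while NFE2L2 was at 0.52 and NQO1 at 0.51. Of the 4 comparisons with the SK-hep1 mock control, this was the one in which NFE2L2 and NQO1 stood highest. Each had a ratio of deposited levels of 1.57, against a fold of 1.43 after quantile normalization. The interval of the NQO1 ratio (1.55 to 1.60) was the narrower because of its 39343 reads.

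With PSPC1-Y523F, 2 of 8 members were at least 2-fold lower, HMOX1 and TXNRD1, beside 5.29% of all genes in either direction and 2.46% lower. HMOX1 was at -1.94, a ratio of 0.249 (0.240 to 0.259), and TXNRD1 at -1.56, a ratio of 0.330 (0.323 to 0.337). GCLM was at -0.63 and NFE2L2 at -0.53, whereas KEAP1 was at 0.26 and GCLC at 0.11. With PSPC1-Y523F/PTK6 the same 2 members were at least 2-fold lower, beside 1.59% of all genes lower and 5.03% in either direction. HMOX1 was at -1.37 and TXNRD1 at -1.06, and the second fell just short of 2-fold, at -0.99, when reads were scaled by trimmed mean of M-values (TMM). In that comparison 7 of 8 members lay below 0, with KEAP1 the exception at 0.06, and their median was -0.47 beside -0.04 for all 12412 genes. Log2 fold changes of both PSPC1-Y523F comparisons with the mock control followed transcript GC content, each with a Spearman rho of 0.25. With GC content and length taken out, KEAP1 in PSPC1-Y523F/PTK6 was at -0.12. Across the 4 comparisons the members' medians were -0.28, -0.26, -0.34 and -0.47, beside -0.03, -0.04, -0.01 and -0.04 for all genes, and they stayed below 0 under every alternative tried. HMOX1, GCLM, TXNRD1 and SRXN1 were below 0 in all 4. The share of reads on mitochondrial genes was 0.463% in the mock control and 0.759% to 1.74% in the transfectants, and its part in these differences was not tested.

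**Figure D2:**
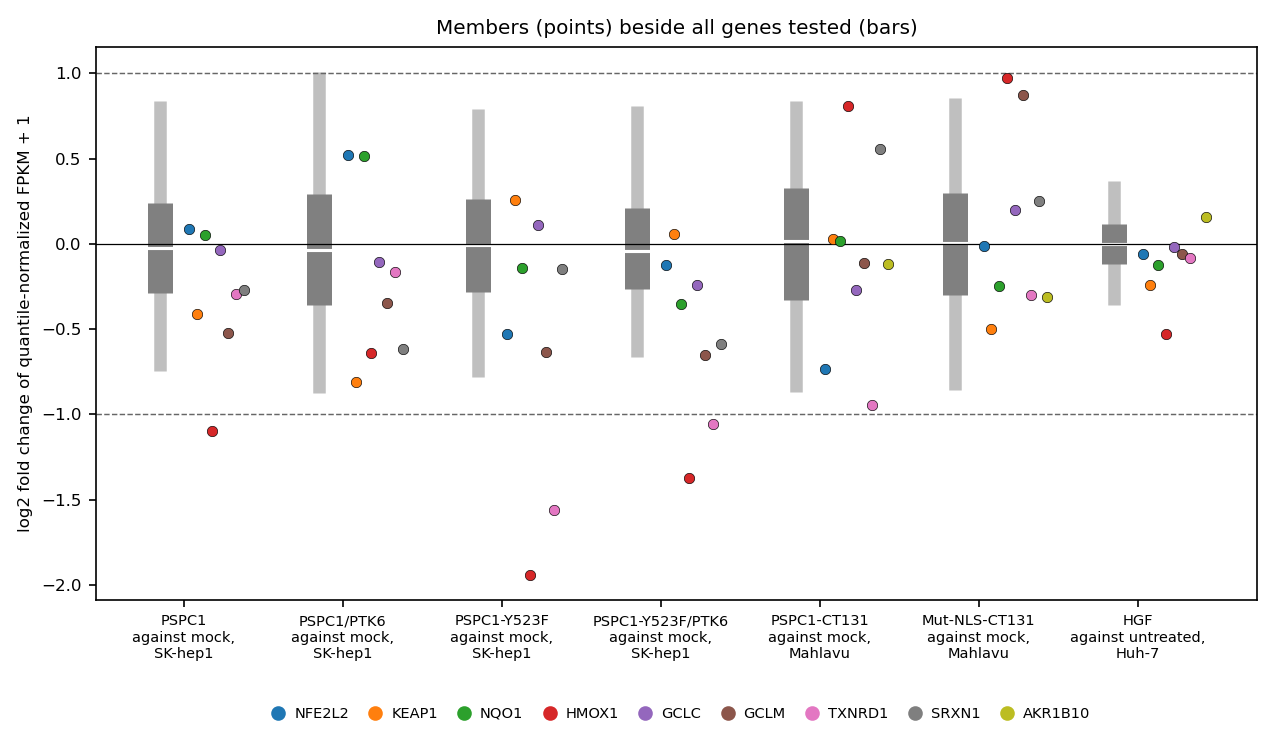
Log2 fold change of quantile-normalized FPKM + 1 for the members (points) in the 7 comparisons with the control of the same line, beside all genes tested (bars: dark, 25th to 75th percentile; light, 5th to 95th percentile; white line, median); dashed lines mark 2-fold. HMOX1 and TXNRD1 are the points below the lower dashed line, HMOX1 at -1.10, -1.94 and -1.37 and TXNRD1 at -1.56 and -1.06.

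The mutant was also set beside wild-type PSPC1 directly. TXNRD1 was at least 2-fold lower in PSPC1-Y523F than in PSPC1, with a log2 fold change of -1.27 and a ratio of 0.409 (0.401 to 0.418), and it was the 1 member of 8 to pass, beside 2.37% of all genes lower and 4.25% in either direction. HMOX1 was at -0.84, NFE2L2 at -0.61 and KEAP1 at 0.67. The PSPC1-Y523F library held 71 PSPC1 reads and the PSPC1 library 209, so mutation and amount cannot be told apart.

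The libraries with PTK6 were then set beside those without, and 0 of 8 members reached 2-fold in either pair. Against PSPC1, the PSPC1/PTK6 library had NQO1 at 0.47, HMOX1 at 0.46 and NFE2L2 at 0.44, with KEAP1 at -0.40, beside 4.96% of all genes called. Log2 fold changes of this pair followed GC content with a rho of -0.31. With GC content and length taken out, NQO1 was at 0.38, HMOX1 at 0.49, NFE2L2 at 0.35 and KEAP1 at -0.31. Against PSPC1-Y523F, the PSPC1-Y523F/PTK6 library had HMOX1 at 0.57, TXNRD1 at 0.50 and NFE2L2 at 0.41, with SRXN1 at -0.44, GCLC at -0.35 and NQO1 at -0.21, beside 5.98% of all genes. NFE2L2 and HMOX1 were thus higher and KEAP1 lower in the PTK6 library of each pair, and NQO1 had opposite signs. The PSPC1 level was also higher with PTK6 in both pairs, from 7.01 to 26.4 and from 2.28 to 70.9 FPKM, so the agents cannot be told apart.

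**Figure D3:**
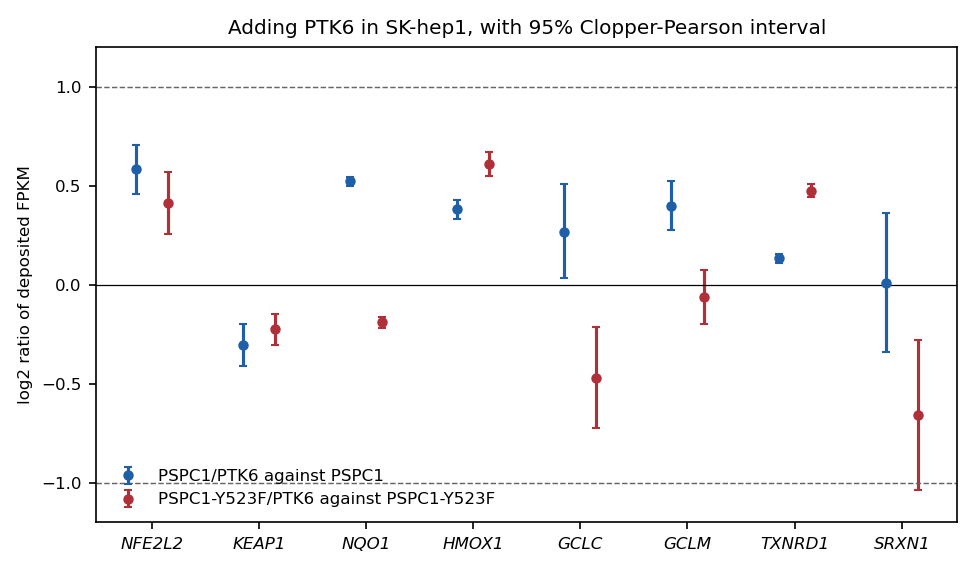
Log2 ratio of deposited FPKM in the library with PTK6 over the library without it for 8 members in SK-hep1, in wild-type PSPC1 (blue) and PSPC1-Y523F (red) cells, with 95% Clopper-Pearson intervals that cover counting error only. NQO1 lies above 0 in wild-type and below 0 in mutant cells, and every point lies within 2-fold (dashed lines).

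In Mahlavu all 9 members could be compared and 0 reached 2-fold in the library labelled PSPC1-CT131, where 6.33% of all genes did. TXNRD1 was at -0.95 and NFE2L2 at -0.74, and HMOX1 was at 0.81 and SRXN1 at 0.56. The SRXN1 value rests on 117 and 107 reads, and the interval of its deposited ratio, 0.955 to 1.64, includes 1. HMOX1 passed 2-fold, at 1.06, when reads were scaled by TMM. Log2 fold changes of this comparison followed transcript GC content, with a Spearman rho of 0.57 across 12402 genes, which are not independent replicates. With GC content and length taken out, TXNRD1 was at -0.83, NFE2L2 at -0.63 and HMOX1 at 0.58.

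With the construct labelled Mut-NLS-CT131, 0 of 9 members reached 2-fold, beside 6.42% of all genes. HMOX1 was nearest at 0.97, with a ratio of deposited levels of 1.88 (1.78 to 1.98), followed by GCLM at 0.88, and KEAP1 was lowest at -0.50. HMOX1 passed 2-fold under TMM scaling, at 1.05, and with GC content and length taken out, at 1.04. Between the constructs, PSPC1-CT131 had less GCLM than Mut-NLS-CT131, at -0.99, and 0 of 9 members passed beside 8.82% of all genes. GCLM passed at -1.09 on FPKM as deposited but was at -0.43 with GC content and length taken out. Its transcript holds 37.3% GC, at percentile 5.54 of the genes compared, and fold changes between these libraries followed GC content with a rho of 0.57.

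With HGF, 0 of 8 members compared reached 2-fold, and only 0.82% of all genes did. Of the 8, 7 lay below 0, with a median of -0.07 beside -0.002 for all genes. Counting intervals of 5 of the 9 members excluded 1, for 1 library against 1. HMOX1 was lowest at -0.53, a ratio of 0.671 (0.575 to 0.781) on 278 and 445 reads, and KEAP1 was at -0.24. The other members lay between -0.12 and 0.21, the upper value being SRXN1, which was below 1 FPKM and not counted.

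Between the mock controls of Mahlavu and SK-hep1, 5 of 9 members were at least 2-fold apart, beside 33.4% of all genes, the largest share of the 12 comparisons made. AKR1B10 was higher in Mahlavu, with 3361 reads against 1 read and a ratio of 3212 (576 to 126887), and NFE2L2 was higher at 1.32. HMOX1 was lower at -2.67, NQO1 at -1.81 and SRXN1 at -1.19. Without quantile normalization the SRXN1 ratio was 0.562 (0.438 to 0.717), which is less than 2-fold. The line with more NFE2L2 transcript thus had less NQO1 and HMOX1 but more AKR1B10. GCLC was at 0.54, TXNRD1 at 0.04 and GCLM at -0.25.

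The other genes of the pathway were taken from 6 lists of 61 genes in all, which cover partners and degradation of NRF2, glutathione, thioredoxin and peroxiredoxin, NADPH supply, heme and iron, and carbonyl and xenobiotic detoxification. With PSPC1, 49 of them could be compared, 1 was at least 2-fold higher and 3 were lower, or 8.16% beside 5.58% of all genes. With PSPC1/PTK6, 2 of 49 were higher and 0 lower, or 4.08% beside 8.41%. With PSPC1-Y523F, 1 of 48 was higher and 5 lower, or 12.5% beside 5.29%, and with PSPC1-Y523F/PTK6 3 of 50 were higher and 2 lower, or 10.0% beside 5.03%. The medians of the list in these comparisons were -0.02, 0.14, -0.26 and -0.07, beside -0.03, -0.04, -0.01 and -0.04 for all genes. Above 0 lay 24 of 49, 33 of 49, 10 of 48 and 22 of 50 genes. In PSPC1/PTK6 the list's median was thus above 0, while that of the 8 members compared was -0.26.

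SQSTM1 encodes p62, which binds KEAP1 and directs it to autophagy. It was 1658 FPKM in the SK-hep1 mock control, 644 with PSPC1, 1435 with PSPC1/PTK6, 544 with PSPC1-Y523F and 879 with PSPC1-Y523F/PTK6. It was at least 2-fold lower in the 2 libraries without added PTK6, at -1.29 and -1.55. FTH1, the ferritin heavy chain that stores the iron released from heme, had 862, 289, 618, 212 and 631 FPKM in the same order and passed in the same 2 comparisons, at -1.55 and -1.96. For SQSTM1 and FTH1, as for HMOX1, the mock control was highest, PSPC1-Y523F lowest, and each PTK6 library exceeded its counterpart without PTK6.

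ABCC3, which exports glutathione and glucuronide conjugates, was higher in 3 transfectants, with 2.45 FPKM in the mock control, 18.7 with PSPC1, 18.8 with PSPC1/PTK6, 15.8 with PSPC1-Y523F and 2.31 with PSPC1-Y523F/PTK6. The PSPC1-Y523F/PTK6 library thus stood at the mock level. TRIM16L was lower in PSPC1-Y523F at -1.41, and PIR and OSGIN1 were lower in PSPC1-Y523F/PTK6 at -1.39 and -1.13. ME1, which supplies NADPH, was higher in PSPC1-Y523F/PTK6 at 1.15 and in PSPC1/PTK6 at 1.42. NFE2, a relative of NRF2, was higher in PSPC1-Y523F/PTK6 at 1.49 on 112 against 17 reads. AKR1C3 was lower in PSPC1 at -1.29, on 9 against 49 reads, and its reads may be split with near-identical AKR1C genes.

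**Figure D4:**
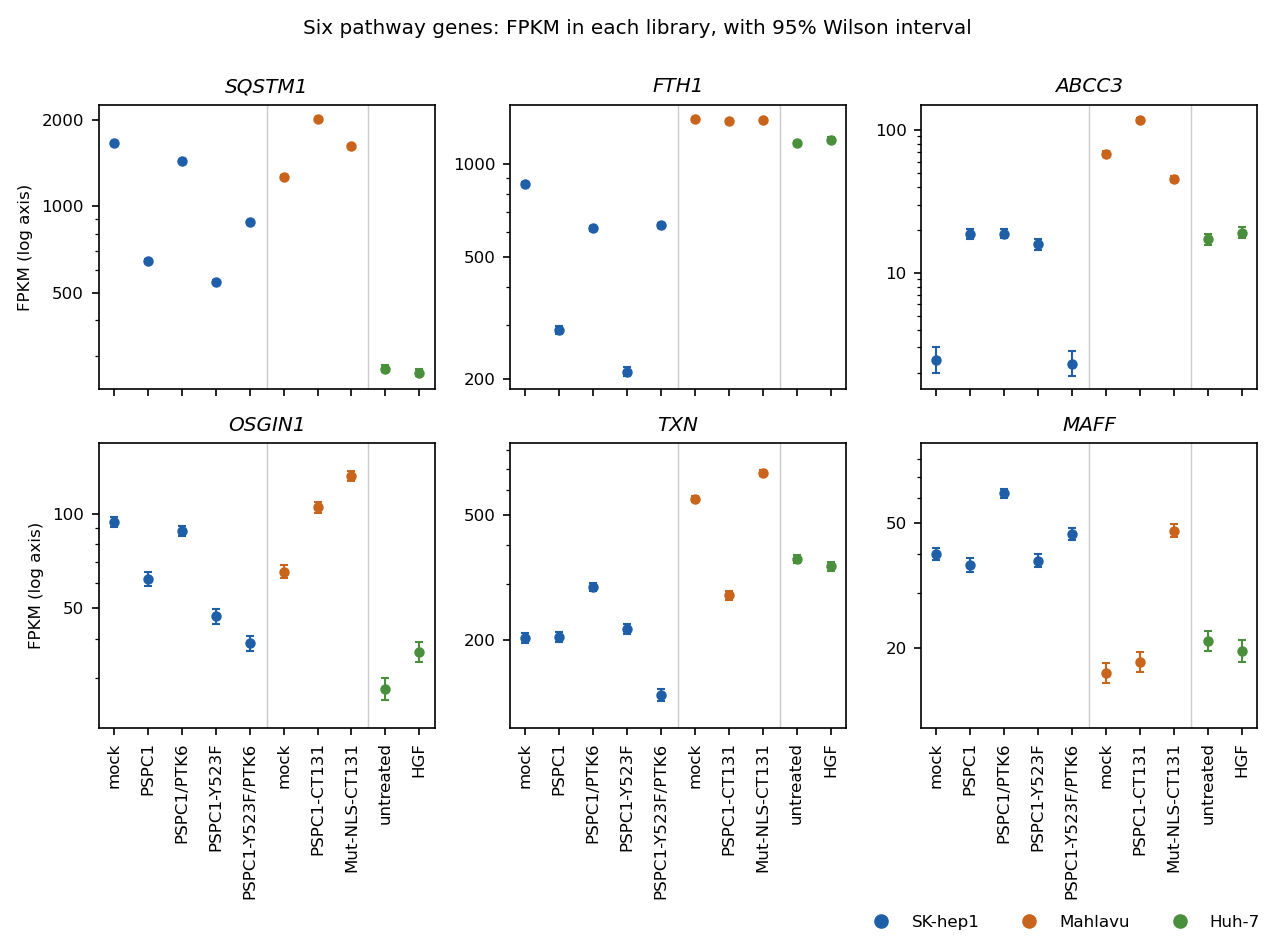
FPKM of 6 pathway genes (log axes) in the 10 libraries with 95% Wilson intervals that cover counting error only. SQSTM1 and FTH1 are lowest among SK-hep1 libraries in PSPC1-Y523F at 544 and 212 FPKM, and MAFF is 47.3 FPKM in Mut-NLS-CT131 against 16.7 FPKM in the Mahlavu mock control.

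In Mahlavu, 1 of 54 pathway genes was at least 2-fold higher and 2 were lower with PSPC1-CT131, or 5.56% beside 6.33% of all genes. AKR1C1 was higher at 1.34, and TXN, the thioredoxin that TXNRD1 reduces, was lower at -1.16, as was the cystine transporter subunit SLC3A2 at -1.08. With Mut-NLS-CT131, 6 of 53 were higher and 1 lower, or 13.2% beside 6.42% of all genes. MAFF, a small MAF partner of NRF2, was at 1.64, AKR1C2 at 1.36, TKT of the pentose phosphate pathway at 1.26 and SLC3A2 at -1.71. Of the 53, 43 lay above 0, with a median of 0.33 beside 0.00 for all genes. The AKR1C reads are uncertain for the reason given above. With PSPC1-CT131, 34 of the 54 lay above 0, with a median of 0.20 beside 0.01. Fold changes with PSPC1-CT131 followed GC content with a rho of 0.57, and its part in the values of these genes was not tested. In Huh-7, 0 of 56 reached 2-fold with HGF, beside 0.82% of all genes. In the comparison of mock controls 18 of 52 were higher and 5 lower in Mahlavu, or 44.2% beside 33.4%. By list, carbonyl and xenobiotic detoxification had 8 of 13 higher and 0 lower, and NADPH supply and heme and iron each had 3 of 6 higher and 0 lower. Glutathione had 3 of 11 higher and 2 lower, thioredoxin and peroxiredoxin 1 of 4 and 1, and partners and degradation of NRF2 0 of 12 and 2.

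Genes whose pattern was most like the targets were ranked by Pearson r over the 8 SK-hep1 and Mahlavu libraries, after subtracting each line's mean, against the mean of 6 targets with a mean of at least 5 FPKM. CSNK2A1 came first at 0.985, followed by ADNP at 0.984, PPP1CC at 0.970, TUSC3 at 0.966 and NDUFAF2 at 0.964. Of 9392 genes compared, 58 had an r of at least 0.9. The pattern includes AKR1B10, which reached that mean only through Mahlavu and had 0 to 5 reads in SK-hep1. On the same values AKR1B10 had a negative r with every other target in the pattern, from -0.09 with GCLC to -0.80 with HMOX1. Those r rest on its 0 to 5 reads in the SK-hep1 libraries, so nothing is drawn from them. Pairs of the other targets ran from -0.15 (NQO1 with GCLC) to 0.68 (HMOX1 with GCLM). By these pairs, without AKR1B10, the mean does not stand for a pattern that all targets shared. Without AKR1B10, an alternative chosen after seeing the data, CSNK2A1 and TUSC3 were 2 of the 5 genes ranked first, and ADNP, PPP1CC and NDUFAF2 were at ranks 11, 29 and 19. The libraries share depth and base composition with the genes set beside each other, so this is a description only.

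The genes lie at these positions in the tables, whose positions are those of GENCODE 29 on GRCh38. NFE2L2 is at chr2:177227595-177392697, KEAP1 at chr19:10486120-10503741, NQO1 at chr16:69706996-69726951 and HMOX1 at chr22:35380361-35394214. GCLC is at chr6:53497341-53616970, GCLM at chr1:93885205-93909456, TXNRD1 at chr12:104215779-104350305, SRXN1 at chr20:646615-653370 and AKR1B10 at chr7:134527592-134541408. NFE2L2 shares 17.6% of its exon bases with AC019080.1 on the same strand, which never exceeded 2.60 FPKM. The antisense gene AC092115.2 overlaps 17.7% of the NQO1 exon bases and was listed at 0 throughout. Whether reads were left out of the NQO1 count because of this overlap was not tested. Without strand, reads of a gene and of its antisense partner cannot be told apart, and the library kit named in the labels does not mark strand.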

How the data were processed

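RNA-Seq was read from 10 libraries of SK-hep1, Mahlavu and Huh-7 cells, 1 per condition, grouped by their labels. The authors deposited raw gene counts and the FPKM derived from them for SK-hep1 and Mahlavu (8 libraries), and nothing but FPKM for Huh-7 in the tables used here. Their processing notes name TopHat2 2.0, HTSeq 0.6.1, edgeR and GRCh38.p12, with no role or order; the methods name another build, but positions equal those of GENCODE 29 on GRCh38 for 97.6% of shared genes. The labels describe poly-A selection, the methods rRNA depletion. The counting mode is not given in the sources used here.

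Per table, 8 lines without a gene were left out. Reads behind Huh-7 FPKM were recovered from the step that 1 read makes (100% whole within 0.05 reads). FPKM were quantile normalized across the 8 libraries with counts and, separately, across the Huh-7 pair, whereas the study's methods state quantile normalization across all samples, and log2 fold changes taken with a pseudocount of 1 FPKM, at a mean of at least 1 FPKM and at least 2-fold. Wilson and Clopper-Pearson intervals (95%) cover counting error only, since reads carry no molecular identifiers. Scripts (Python 3.11.15, numpy 2.4.6, pandas 2.3.3, scipy 1.17.1; edgeR 4.0.16 in R 4.3.3 for TMM factors alone) were tested on simulated data. The members and lists were chosen with earlier results of these data known. Named were all members, PSPC1, PTK6, at most the 3 highest and the 3 lowest other pathway genes past 2-fold per comparison with a control, and the 5 genes most like the targets; 1 gene that this rule names is not reported here. Alternatives were 2 other pseudocounts (0.1 and 5), deposited FPKM, FPKM scaled to 1000000, quantile normalization within lines or (chosen after seeing the data) across all 10 libraries, no filter or 5 FPKM, TMM, and GC content with length taken out.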

Additional observations from a re-analysis of the deposited data

Results flagged for a closer look

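NQO1 differed between the pairs that compare a library with and without PTK6. In SK-hep1 cells with wild-type PSPC1 the library with PTK6 was higher, at a log2 fold change of 0.47, and in cells with PSPC1-Y523F it was lower, at -0.21. Under the alternatives the first value ran from 0.30 to 0.52 and the second from -0.25 to -0.07. Each was smallest in size, at 0.30 and -0.07, when reads were scaled by TMM. The difference between these changes was not tested, since each rests on 1 library against 1.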

How the results depend on the processing

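Of 117 counts of members under the alternatives, 110 stayed within 1.5 times the reported count. The exceptions were these. With Mut-NLS-CT131 against mock the count went from 0 to 1 under TMM and with GC content and length taken out. With PSPC1-CT131 against mock it went from 0 to 1 under TMM. Between PSPC1-CT131 and Mut-NLS-CT131 it went from 0 to 1 with FPKM as deposited, with FPKM scaled to 1000000 and with a pseudocount of 0.1. With PSPC1-Y523F/PTK6 against mock it went from 2 to 1 under TMM. Quantile normalization across all 10 libraries, chosen after seeing the data, changed none of the 12 counts. For the 11 calls of a member in a comparison, all 104 alternative values kept their direction and 99 stayed at least 2-fold. The settings without a filter and at 5 FPKM change which genes are compared but not a member's value, so those values could not move. An unchanged count can also hide a swap. Between the mock controls, on FPKM as deposited, SRXN1 fell short of 2-fold at -0.58 while GCLC passed at 1.05. The share of all genes called depended on the pseudocount and filter: with PSPC1 against mock it was 5.58% as reported, 8.70% with a pseudocount of 0.1, 2.10% with 5 and 1.41% without a filter, and for PSPC1-CT131 against mock it was 6.33% as reported and 10.8% with FPKM scaled to 1000000. On FPKM as deposited the median of all genes lay at -0.24 for PSPC1-CT131 against mock, 0.15 for PSPC1/PTK6 against mock and 0.41 between the mock controls. The share of called genes that were lower then went from 49.9% to 83.7% for PSPC1-CT131 and from 50.8% to 67.7% for Mut-NLS-CT131 against mock, from 52.0% to 76.2% between these constructs, from 39.5% to 19.3% for PSPC1/PTK6 against mock, from 37.7% to 16.1% against PSPC1 and from 49.5% to 24.5% between the mock controls; with FPKM scaled to 1000000 it went from 31.6% to 43.5% for PSPC1-Y523F/PTK6 against mock. TMM needs counts, so it was not run for Huh-7. No paired analysis was possible because each condition had 1 library, so no groups share more than 1 replicate number; the pairs with and without PTK6 were not fitted together.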

Other observations

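GSTP1, a glutathione transferase of the pathway lists, was 301 to 397 FPKM in the 5 SK-hep1 libraries and 1259 and 1207 FPKM in untreated and HGF-treated Huh-7, while the 3 Mahlavu libraries held 1, 1 and 0 reads of it, fewer than the 3 reads taken as the floor. AKR1C3, which reduces ketosteroids, went the other way, at 2.37 FPKM in the SK-hep1 mock control and 506 FPKM in that of Mahlavu, with the uncertainty of its near-identical relatives. Both were named after their values were seen.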
